A study of Mus musculus with 12 samples.

Results

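The genes described here encode proteases and scaffold proteins of the mitochondrial inner membrane. They were taken by name from the deposited table and are Phb, Phb2, Afg3l2, Spg7, Afg3l1, Yme1l1, Oma1 and Parl, 8 of its 23997 rows. All 8 passed the filter on low values (at least 1 FPKM in at least 3 libraries) and are among the 11196 genes tested. FPKM are fragments per kilobase of transcript scaled to the mapped fragments of the library, so levels can be set side by side between genes.

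The libraries hold RNA of cumulus cells, which are granulosa-lineage cells around the oocyte, from female C57BL/6J mice. The 4 groups were wild type (WT) at 3 months, ClpP-/- (KO) at 3 months, WT at 6 months and KO at 6 months, with 3 libraries each. Every mouse, controls included, was given pregnant mare serum gonadotropin at 5 IU, and cells were taken 44 h later by the treatment protocol or 48 h later by the series description. Each library was a pool of 100 cells from 1 mouse, amplified by Smart-Seq2, and the labels put all cells at passage P1. The labels do not say how the ClpP allele was made or whether the loss is limited to some tissues, so other ovarian cells and the oocyte may lack ClpP too. In pools of cells, fewer cells of a type and less RNA per cell cannot be told apart.

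ClpP is a protease of the mitochondrial matrix, while the proteins described here work in or on the inner membrane that encloses it. Prohibitin 1 (Phb) and prohibitin 2 (Phb2) alternate in a large ring that organises the membrane and binds the m-AAA protease. The m-AAA protease faces the matrix, is built from Afg3l2, Spg7 (paraplegin) and, in mouse, Afg3l1 in several combinations, and processes proteins such as the ribosomal subunit Mrpl32. Yme1l1, the i-AAA protease, faces the intermembrane space and shares with the stress-activated protease Oma1 the cleavage of the fusion protein Opa1. Parl, the rhomboid protease of the membrane, cleaves within membrane-spanning segments, with Pink1, Pgam5, Diablo and Stard7 among its substrates.

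Library identity and content were checked first. Clpp stood at 88.2 to 146 FPKM in the 6 WT libraries and at 0.769 to 6.63 in the 6 KO libraries, which matches the labels. Entries named as small RNA took 25.7% of summed FPKM in library 1 of 3-month WT. They took 32.0% in library 3 of 3-month KO and 37.5% in library 3 of 6-month KO, against 0.263% to 6.82% in the others. All 12 libraries held the granulosa and cumulus markers, whose 12 genes summed to 3002 to 8393 FPKM with Inha as the top gene. Other cell types contributed unevenly. Library 3 of 3-month KO had a theca and stromal sum (10 markers) of 7264 FPKM and library 3 of 6-month KO one of 9706, where the other 10 libraries had 3.04 to 944. The 10 blood and leukocyte markers summed to 742, 747, 1374 and 702 FPKM in library 3 of 3-month WT, 3-month KO, 6-month WT and 6-month KO, against 0.472 to 41.4 in the other 8. The 11 oocyte markers summed to 61.0 and 252 FPKM in the 2 KO libraries with the high theca sums, and Bmp15, Nlrp5 and Figla were listed at 0 in all 3-month WT libraries. Library 3 of 3-month KO, 6-month WT and 6-month KO led a combined score of other-cell markers. For the KO against WT differences of the 8 genes, values without these 3 libraries are given as well. Genes of the pathway lists are not given without them. Library 3 of 3-month WT came next in the combined score, at 0.566 against 1.49 in library 3 of 6-month WT, and was kept. At 3 months the values without the 3 libraries therefore leave out a KO library and no WT library. They are not a comparison freed of other cells. Values of a group are listed in the order of libraries 1, 2 and 3.

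The promoters of Phb, Phb2 and Parl are shown because these were the 3 most abundant of the 8 transcripts and because the prohibitins work as a pair. Each is the stretch of 250 bases before the RefSeq transcription start on GRCm38.p6, read 5′ to 3′ on the coding strand, with motif letters in capitals. Of the 8 genes, 7 had a window in the RefSeq promoter table, all but Afg3l2.
Phb, chr11:95666707-95666956, plus strand: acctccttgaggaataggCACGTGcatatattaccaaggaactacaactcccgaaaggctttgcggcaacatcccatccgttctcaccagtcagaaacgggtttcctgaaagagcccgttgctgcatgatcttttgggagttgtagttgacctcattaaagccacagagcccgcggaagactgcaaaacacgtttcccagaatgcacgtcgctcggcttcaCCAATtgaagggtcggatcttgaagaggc
Phb2, chr6:124712039-124712288, plus strand: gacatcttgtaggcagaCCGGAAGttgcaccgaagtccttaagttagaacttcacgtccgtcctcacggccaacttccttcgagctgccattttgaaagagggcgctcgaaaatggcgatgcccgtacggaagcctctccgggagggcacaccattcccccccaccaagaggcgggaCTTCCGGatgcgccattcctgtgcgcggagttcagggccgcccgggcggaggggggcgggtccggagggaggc
Parl, chr16:20302363-20302612, minus strand: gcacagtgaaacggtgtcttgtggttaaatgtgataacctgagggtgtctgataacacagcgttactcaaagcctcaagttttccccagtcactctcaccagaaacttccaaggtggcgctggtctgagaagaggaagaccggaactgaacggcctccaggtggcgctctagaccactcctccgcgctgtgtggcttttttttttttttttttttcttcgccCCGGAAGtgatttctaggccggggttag
Phb held the E-box CACGTG at position -232 and CCAAT at -29, counted back from the start. Phb2 held the ETS motif CCGGAAG at -233 and again, on the reverse strand, at -73. Parl held the ETS motif at -28. The windows were searched on both strands for CGCATGCG (NRF1), CCGGAAG (ETS), AAGATGGCG (YY1), TGACGTCA (CRE), CACGTG (E-box), CCAAT and TGATGCAA (CARE), none of which overlaps another in these windows. Among 32851 RefSeq windows of this length, 6.91% held the ETS motif, 6.02% the E-box and 33.8% CCAAT. The Yme1l1 window held the ETS motif at -73 and -19 and CCAAT at -134, while the Spg7, Afg3l1 and Oma1 windows held none of the 7 motifs. RefSeq starts are not all those of the GENCODE M21 gene models whose positions are given below. The windows of Yme1l1 (23156255 to 23156504), Oma1 (103313596 to 103313845) and Parl run past the start of their gene models. Both ETS sites of Yme1l1 lie inside its gene model. The Spg7 window (123065258 to 123065507) lies wholly inside its gene model.

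The 8 transcripts spanned a wide range of levels. Averaged over all 12 libraries, Phb2 stood at 182 ± 52.2 FPKM (SD, n = 12), Phb at 167 ± 34.3 and Parl at 90.5 ± 29.4. Yme1l1 followed at 18.2 ± 5.23 FPKM, Spg7 at 14.0 ± 3.56, Oma1 at 11.6 ± 3.12, Afg3l2 at 10.3 ± 2.97 and Afg3l1 at 5.66 ± 2.08. Phb2 and Phb lay at the 93.7 and 93.1 percentiles of mean FPKM among the genes tested, and Afg3l1, the lowest, at the 42.9 percentile. The lowest value of a prohibitin in any library (90.4 FPKM, Phb2) was above the highest of an AAA protease (28.5 FPKM, Yme1l1). Between neighbours in this order, Parl and Yme1l1 were the only pair whose ranges over the 12 libraries did not overlap. Afg3l2 was above Afg3l1 within each of the 12 libraries, although their ranges overlapped. The other neighbours changed places in at least 1 library: Phb2 was above Phb in 9 of 12, Phb above Parl in 11, Yme1l1 above Spg7 in 10, Spg7 above Oma1 in 9 and Oma1 above Afg3l2 in 9.

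**Figure D1:**
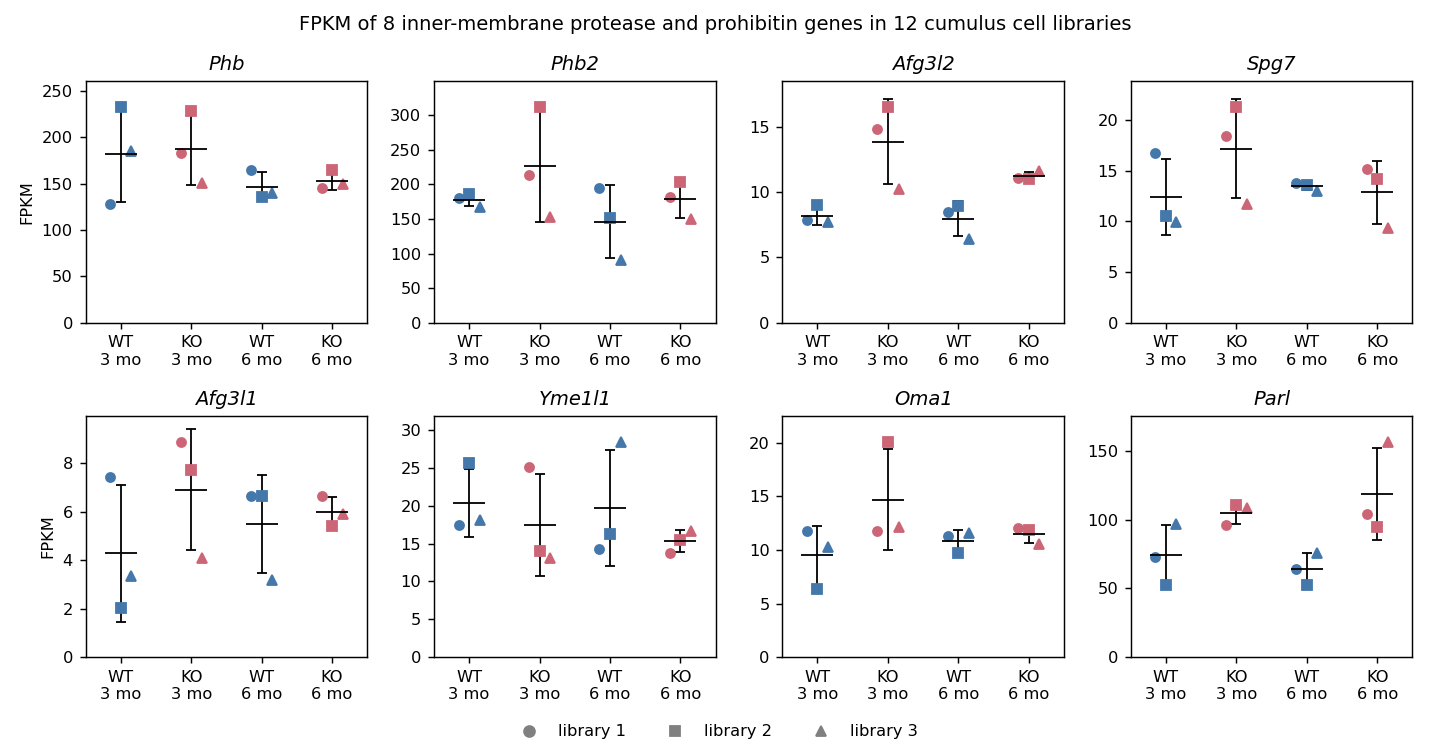
FPKM (vertical axes, linear, from 0) of the 8 genes in each of the 12 libraries, by group, with points for libraries, lines for the group mean and bars for its SD (n = 3). Afg3l2 stands at 10.2 to 16.5 FPKM in the 6 KO libraries and at 6.41 to 9.01 in the 6 WT libraries, while the groups of the other 7 genes overlap at 1 or both ages.

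None of the 8 genes passed an adjusted p of 0.05 for KO against WT, at 3 months, at 6 months or averaged over both ages. Among all genes tested, 0.00893% passed at 3 months, 0.0268% at 6 months and 0.0179% in the average (limma, adjusted by Benjamini and Hochberg over 11196 genes), so few calls were made anywhere in these comparisons. The only gene that passed at 3 months was Clpp itself, which also passed at 6 months and in the average. At an unadjusted p under 0.05, 1 of the 8 stood out at 3 months (Afg3l2), 1 at 6 months (Parl) and both of these in the average, against 6.8%, 1.22% and 5.96% of all genes. The difference KO minus WT was above 0 for 7 of the 8 at 3 months (51.2% of all genes) for 6 of 8 at 6 months (51.5%) and for 7 of 8 in the average (51.1%). The median difference of the 8 genes on the log2(FPKM + 1) scale was 0.49 at 3 months and 0.12 at 6 months, beside 0.012 and 0.014 for all genes tested.

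The prohibitins are the scaffold of the group. Phb (GRCm38 chromosome 11, 95666957 to 95680773, plus strand) stood at 128, 233 and 185 FPKM in 3-month WT and at 183, 228 and 150 in 3-month KO. The 6-month values of Phb were 165, 136 and 140 FPKM in WT against 145, 164 and 150 in KO. The groups overlapped at both ages, and their means differed by far less than the spread between libraries. Means of Phb at 3 months were 182 ± 52.2 FPKM (WT) and 187 ± 39.0 (KO; SD, n = 3), and at 6 months 147 ± 15.9 (WT) and 153 ± 10.1 (KO). The log2 difference averaged over both ages was 0.06 (SE 0.18, 95% interval -0.33 to 0.46, limma adjusted p = 0.942). That interval covers a decrease as well as an increase, so a change of either sign within it was not detectable here. Phb has a near-identical processed pseudogene, Gm7666 (99.9% identity over 819 bases), and the sources used here do not say how reads shared with such copies were assigned. Of its processed pseudogenes, 1700071K01Rik is a row of the table and averaged 0.0149 FPKM. With the 3 libraries highest in other-cell markers left out, the Phb difference was 0.21 at 3 months, 0.04 at 6 months and 0.13 averaged.

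Phb2 (chromosome 6, 124712336 to 124716950, plus strand) stood at 180, 186 and 168 FPKM in 3-month WT and at 213, 312 and 153 in 3-month KO. Its 6-month values were 195, 152 and 90.4 FPKM in WT against 182, 203 and 150 in KO. KO libraries 1 and 2 of the 3-month group were above every WT library of that age, but KO library 3 was below them all. The lowest value, 90.4, was in 6-month WT library 3, one of the libraries rich in other-cell markers. The mean difference was 0.29 (SE 0.32) at 3 months and 0.35 (SE 0.32) at 6 months, with adjusted p = 0.865 and 1.00 in limma. Without the 3 libraries highest in other-cell markers the difference was 0.54 at 3 months and 0.16 at 6 months, larger at one age and smaller at the other. An exon of Phb2 overlaps 87 bases of the antisense gene Gm15884, and without strand such reads cannot be told apart. Phb2 exons also share 155 bases with the snoRNA gene Gm23547 on the same strand. Whether reads of either were counted as Phb2 was not tested.

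Phb2 exceeded Phb in 9 of the 12 libraries. The ratio of Phb2 to Phb ran from 1.00 to 1.37 over the 6 KO libraries (median 1.2) and from 0.647 to 1.40 over the 6 WT libraries (median 1.01). The KO range lay inside the WT range. The log2 ratio (0.1 FPKM added to each gene) was higher by 0.26 in KO, with p = 0.215 in an exact 2-sided permutation test within ages and 0.287 after adjustment over the 4 ratios tested.

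Afg3l2 (chromosome 18, 67404764 to 67449172, minus strand), a subunit that can form the m-AAA protease by itself, separated the genotypes most completely. Its level at 3 months was 7.88, 9.01 and 7.69 FPKM in WT against 14.9, 16.5 and 10.2 in KO. In 6-month mice it was 8.51, 8.93 and 6.41 FPKM in WT against 11.05, 11.03 and 11.6 in KO. All 6 KO libraries (10.2 to 16.5, median 11.3) were above all 6 WT libraries (6.41 to 9.01, median 8.20), as in 0.196% of the genes tested, while 0.0625% had all KO below all WT. At 3 months Afg3l2 was 1.69 times the WT mean in KO (13.9 ± 3.27 against 8.20 ± 0.710 FPKM, SD, n = 3), and at 6 months 1.41 times (11.2 ± 0.332 against 7.95 ± 1.35).

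In limma the Afg3l2 difference was 0.67 (SE 0.27, 95% interval 0.09 to 1.25, unadjusted p = 0.0276, adjusted p = 0.711) at 3 months. At 6 months it was 0.46 (SE 0.27, interval -0.12 to 1.05, adjusted p = 1.00). Averaged over both ages it was 0.57 (SE 0.19, interval 0.15 to 0.98, unadjusted p = 0.0113, adjusted p = 0.783), the 128th smallest p of 11196. A test of the mean within ages by exact permutation gave an unadjusted 2-sided p = 0.005 for Afg3l2, the smallest that its 400 arrangements allow. That test was run on each of the 8 genes and was added after the data were seen. As KO was entirely above WT at both ages, this p was fixed by that separation and is not separate evidence. Without the 3 libraries highest in other-cell markers the Afg3l2 difference was 0.86 at 3 months (adjusted p = 0.257), 0.31 at 6 months and 0.59 averaged (adjusted p = 0.748). Exact permutation then gave p = 0.0167, the smallest that its 60 arrangements allow. The direction of the Afg3l2 difference was the same under every alternative run for KO against WT.

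Spg7 (chromosome 8, 123062942 to 123097760, plus strand), the paraplegin subunit of the m-AAA protease, did not separate the genotypes. It stood at 16.8, 10.5 and 9.91 FPKM in 3-month WT and at 18.5, 21.3 and 11.8 in 3-month KO. The 6-month values of Spg7 were 13.8, 13.6 and 13.02 FPKM in WT against 15.2, 14.2 and 9.32 in KO. The WT libraries of 6 months lay close together, and KO libraries fell on both sides of them, with library 3 the lowest. The log2 difference was 0.44 (SE 0.31, adjusted p = 0.807) at 3 months and -0.09 (SE 0.31, adjusted p = 1.00) at 6 months. Without the 3 libraries highest in other-cell markers it was 0.67 at 3 months and 0.09 at 6 months, so its sign at 6 months rests on them.

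Afg3l1 (chromosome 8, 123477903 to 123503916, plus strand), the m-AAA subunit that mice have and humans carry only as a pseudogene, was the least abundant of the 8. It stood at 7.43, 2.04 and 3.36 FPKM in 3-month WT and at 8.89, 7.70 and 4.11 in 3-month KO. For Afg3l1 the 6-month values were 6.64, 6.66 and 3.17 FPKM in WT against 6.63, 5.41 and 5.91 in KO. The 3-month WT libraries differed among themselves by more than their mean differed from KO. The log2 difference was 0.66 (SE 0.42, 95% interval -0.27 to 1.58, adjusted p = 0.799) at 3 months and 0.16 (SE 0.42, adjusted p = 1.00) at 6 months. Leaving out those 3 libraries gave 0.94 at 3 months and -0.13 at 6 months, so the 6-month sign rests on them too. Spg7 and Afg3l1 lie on the same chromosome with 380143 bases between them.

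The balance of m-AAA subunits was read from ratios within each library. Spg7 exceeded Afg3l2 in 11 of 12 libraries, and the exception was 6-month KO library 3 at 0.802. The ratio of Spg7 to Afg3l2 was 2.13, 1.17 and 1.29 in 3-month WT and 1.24, 1.29 and 1.15 in 3-month KO. It was 1.62, 1.52 and 2.03 in 6-month WT and 1.37, 1.29 and 0.802 in 6-month KO. The 6-month groups did not overlap, while at 3 months WT libraries 2 and 3 lay within the KO range. The log2 ratio was lower in KO by a mean difference of -0.43 over both ages (exact 2-sided permutation within ages p = 0.025, adjusted p = 0.1 over 4 ratios). Leaving out 1 library at a time gave -0.51 to -0.30. The adjusted exact permutation p then ran from 0.04 (without 3-month WT library 2) to 0.38. Without the 3 libraries highest in other-cell markers the difference was -0.23 (exact permutation p = 0.2). Whether other cells had a part in it was not tested further. Afg3l2, by which the ratio divides, was itself higher in KO, by 0.57 averaged over both ages against 0.18 for Spg7. The lower ratio is therefore not an observation separate from the Afg3l2 difference. Afg3l1 stayed below Afg3l2 in every library, at a ratio of 0.227 to 0.943 (median 0.501), and this ratio differed by -0.12 between genotypes (exact permutation p = 0.725, adjusted p = 0.725).

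**Figure D2:**
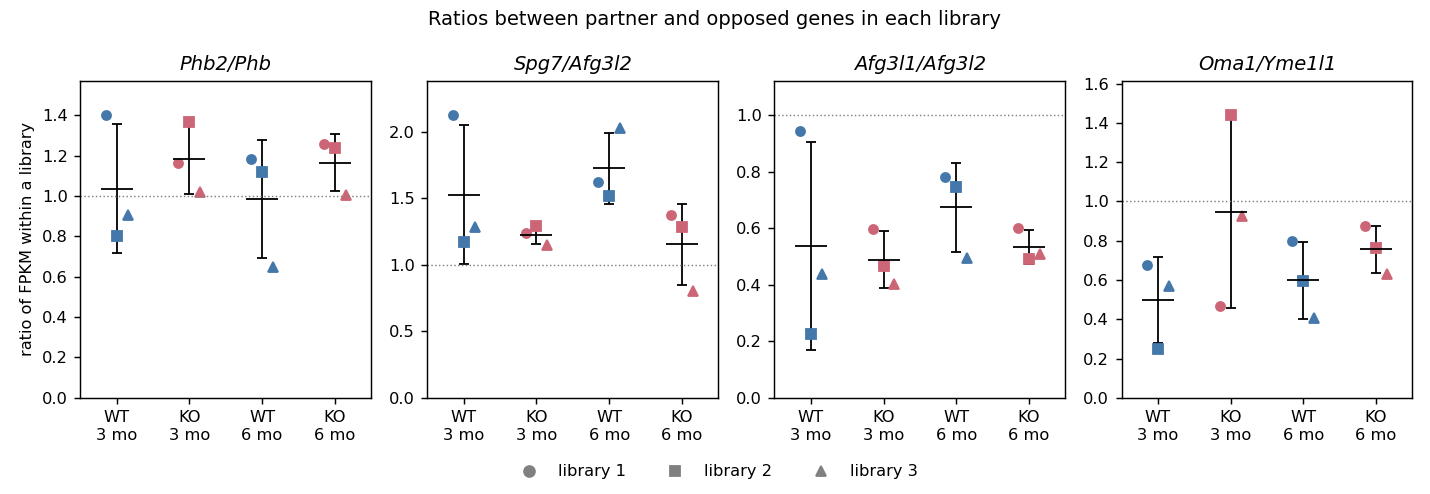
Ratios of partner genes (vertical axes, ratio of FPKM, linear, from 0) in each of the 12 libraries, by group, with points for libraries, lines for the group mean and bars for its SD (n = 3). Spg7 to Afg3l2 lies at 0.802 to 1.37 in KO and at 1.17 to 2.13 in WT, and Afg3l1 to Afg3l2 is under 1 in all 12 libraries.

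Yme1l1, the i-AAA protease, was the only member with a mean below WT in KO at both ages, although at 6 months this rested on 1 library. Yme1l1 (chromosome 2, 23156369 to 23199260, plus strand) stood at 17.5, 25.6 and 18.1 FPKM in 3-month WT and at 25.1, 14.0 and 13.1 in 3-month KO. In 6-month WT it was at 14.2, 16.3 and 28.5 FPKM and in KO at 13.8, 15.5 and 16.7. The high WT value at 6 months was that of library 3, rich in other-cell markers, and without this library the 6-month difference was 0.0020. The log2 difference was -0.25 (SE 0.33, adjusted p = 0.886) at 3 months and -0.28 (SE 0.33, adjusted p = 1.00) at 6 months, each smaller than its error. Averaged over both ages it was -0.27 with an interval from -0.79 to 0.25, and -0.07 without the 3 libraries highest in other-cell markers (-0.09 at 3 months and -0.06 at 6 months).

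Oma1 (chromosome 4, 103313812 to 103371868, plus strand), which cleaves Opa1 when the membrane potential is lost, stood at 11.8, 6.41 and 10.3 FPKM in 3-month WT and at 11.8, 20.1 and 12.2 in 3-month KO. Oma1 at 6 months was 11.3, 9.68 and 11.5 FPKM in WT against 12.04, 11.8 and 10.5 in KO. The 3-month difference came mostly from a low WT library 2 and a high KO library 2, and the 6-month groups lay together. The log2 difference was 0.58 (SE 0.30, 95% interval -0.08 to 1.23, adjusted p = 0.762) at 3 months and 0.07 (SE 0.30, adjusted p = 1.00) at 6 months. Leaving out the 3 libraries highest in other-cell markers gave 0.68 at 3 months and 0.17 at 6 months. The ratio of Oma1 to Yme1l1 ran from 0.468 to 1.44 in KO (median 0.819) and from 0.251 to 0.797 in WT (median 0.582). Oma1 exceeded Yme1l1 in 1 library, 3-month KO library 2. The log2 ratio was higher in KO by 0.63 (exact 2-sided permutation within ages p = 0.1, adjusted p = 0.2 over 4 ratios), and the groups overlapped at both ages.

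Parl had the largest averaged difference of the 8. Parl (chromosome 16, 20279818 to 20302387, minus strand) stood at 72.7, 52.8 and 97.1 FPKM in 3-month WT and at 96.0, 111 and 108 in 3-month KO. Among 6-month mice it stood at 64.2, 52.5 and 75.8 FPKM in WT and at 104, 94.7 and 157 in KO. The 6-month groups did not overlap, and at 3 months the only overlap was WT library 3 above KO library 1. The KO mean was 1.41 times WT at 3 months (105 ± 7.80 against 74.2 ± 22.2 FPKM, SD, n = 3) and 1.85 times at 6 months (119 ± 33.4 against 64.2 ± 11.6). The highest value, 157, was in 6-month KO library 3, which was also the highest in theca and oocyte markers. The part of other cells in the Parl difference was read only by leaving out those libraries, which gave 0.51 at 3 months, 0.77 at 6 months and 0.64 averaged (exact permutation p = 0.05).

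In limma the Parl difference was 0.53 (SE 0.28, 95% interval -0.08 to 1.15, adjusted p = 0.768) at 3 months. At 6 months it was 0.86 (SE 0.28, interval 0.24 to 1.47, unadjusted p = 0.0107, adjusted p = 1.00), the 16th smallest p of all genes. The average was 0.70 (SE 0.20, interval 0.26 to 1.13, unadjusted p = 0.00467, adjusted p = 0.783), the 42nd smallest. By exact permutation within ages the unadjusted 2-sided p for Parl was 0.01. The other 6 members gave unadjusted p of 0.07 (Oma1), 0.2 (Phb2), 0.215 (Afg3l1), 0.225 (Yme1l1), 0.43 (Spg7) and 0.655 (Phb) in the same exact permutation test. With the 3 libraries left out the exact permutation p was 0.0333 for Phb2, 0.05 for Oma1, 0.0833 for Spg7, 0.3 for Afg3l1, 0.55 for Phb and 0.7 for Yme1l1, so that of Phb2 was below that of Parl. The averaged differences were then 0.35 for Phb2, 0.43 for Oma1 and 0.38 for Spg7. Parl has a pseudogene, Gm13181, with 94.3% identity over 489 bases.

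**Figure D3:**
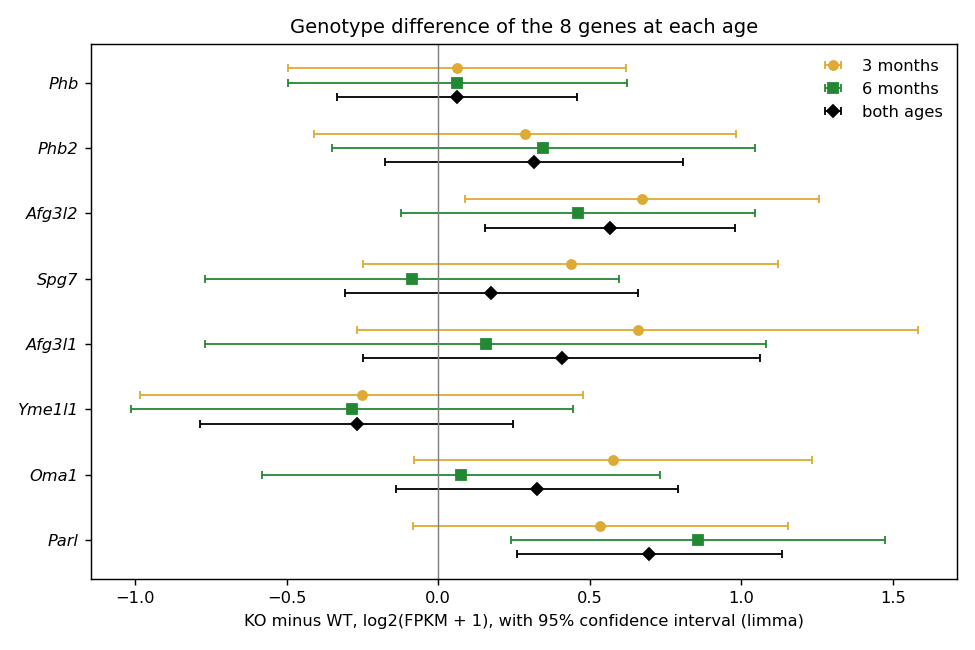
Difference KO minus WT of the 8 genes on the log2(FPKM + 1) scale (horizontal axis) at 3 months, at 6 months and averaged, with points for limma estimates and bars for 95% intervals. The averaged intervals of Afg3l2 (0.15 to 0.98) and Parl (0.26 to 1.13) lie above 0 and those of the other 6 genes cross it, and no adjusted p is under 0.05.

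Counted by overlap, 1 of the 8 genes had KO entirely above WT at 3 months (Afg3l2; 5.02% of all genes) and 2 at 6 months (Afg3l2 and Parl; 3.79%). Afg3l2 was the only member to do so at both ages, as 0.411% of all genes did. None of the 8 had KO entirely below WT at 3 months (5.22% of all genes) or at 6 months (3.01%). The difference between the ages in the KO effect was tested as an interaction, where 0.00893% of all genes passed. None of the 8 members passed, with limma adjusted p = 1.00 for each, and none had an unadjusted p under 0.05 (2.0% of all genes). The interaction was 0.32 for Parl (SE 0.40) and -0.21 for Afg3l2 (SE 0.38), and -0.50 for Oma1 and -0.50 for Afg3l1, so a change with age of this size was not detectable with 3 libraries per group.

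Age was compared within each genotype. The KO and WT groups of each age also enter the genotype comparisons, so these values are not independent of those above. Between 3 and 6 months none of the 8 genes passed in WT (0.00893% of all genes) or in KO (0.0179%), and the groups of the 2 ages overlapped for all 8 in both genotypes (15.7% and 12.8% of all genes did not). At an unadjusted p under 0.05 the count was also 0 of 8 in WT (7.44% of all genes) and in KO (6.48%). In WT the differences, 6 minus 3 months, ran from -0.35 (Phb2, SE 0.32, limma adjusted p = 0.827) to 0.37 (Afg3l1, SE 0.42, adjusted p = 0.866), with 3 of 8 above 0 beside 51.9% of all genes. In KO they ran from -0.38 (Spg7, SE 0.31, adjusted p = 0.809) to 0.14 (Parl, SE 0.28, adjusted p = 0.930), with 1 of 8 above 0 beside 50.8% of all genes. Phb was lower at 6 months by the same amount in both genotypes, -0.27 (SE 0.26) in each, with adjusted p = 0.836 in WT and 0.835 in KO. Afg3l2 in WT differed by -0.05 (SE 0.27) with age.

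How the 8 transcripts varied together was described over the 12 libraries, which share groups, depth and cell content. Of the 28 pairs, 19 had a Pearson r above 0 on the log2(FPKM + 1) scale, and 0 had a permutation p under 0.05 after adjustment over the pairs. Phb2 and Afg3l2 had the highest r, 0.75 (permutation p = 0.00466, adjusted 0.105), with Spearman rho = 0.54 (p = 0.0732). Leaving out the 2 libraries farthest from the median of Phb2 took r to 0.30, so that relation rests on those libraries. Spg7 and Afg3l1 had r = 0.70 (permutation p = 0.0112, adjusted 0.105) and rho = 0.78 (p = 0.00417, adjusted 0.117), and r = 0.87 without the 2 farthest libraries. The partners Phb and Phb2 had r = 0.62 (permutation p = 0.0313, adjusted 0.178) and rho = 0.62 (p = 0.035, adjusted 0.196), and r = 0.46 without the 2 farthest libraries. Deviations from the group means gave 0.82 for Phb2 with Afg3l2, 0.69 for Spg7 with Afg3l1 and 0.52 for Phb with Phb2. Yme1l1 had r below 0 with 6 of the other 7 genes and 0.17 with Phb.

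**Figure D4:**
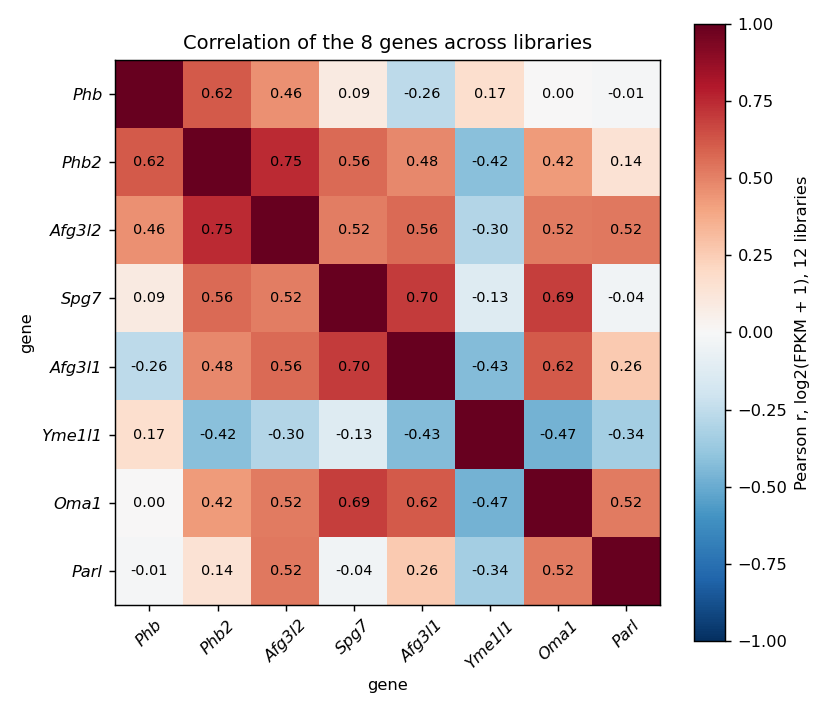
Pearson r of log2(FPKM + 1) between the 8 genes over the 12 libraries, as a square grid with the r printed in each cell. The highest values are 0.75 for Phb2 with Afg3l2 and 0.70 for Spg7 with Afg3l1, and most cells of Yme1l1 are below 0.

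For 7 of the members the genes whose profile over the 12 libraries was most alike were found by Pearson r among 6403 named genes with a mean of at least 5 FPKM. Coq2, a prenyltransferase of coenzyme Q synthesis in the inner membrane, was closest to Afg3l2 (r = 0.901). Coq2 stood at 20.7 to 35.8 FPKM in the WT libraries and at 32.7 to 51.2 in the KO libraries. As Coq2 was chosen for following Afg3l2 over these libraries, its higher KO level is not a separate observation. Acad8, a mitochondrial acyl-CoA dehydrogenase, was closest to Parl (r = 0.899), Eef1d to Phb (0.905), Nup85 to Phb2 (0.971), Thumpd1 to Spg7 (0.960), Ppp2r4 to Afg3l1 (0.892) and Bbip1 to Yme1l1 (0.974). Partners were not each other's closest genes. Phb2 ranked 337th of 6403 for Phb, and Phb ranked 877th for Phb2. Spg7 ranked 120th for Afg3l1, and Afg3l1 ranked 304th for Spg7. Phb2 ranked 68th for Afg3l2, and Afg3l2 ranked 398th for Phb2. These are descriptions over 12 libraries that share their groups.

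Other genes of the same pathways were read from lists named by function. Genes named from a list are among its 3 with the smallest unadjusted limma p for KO against WT averaged over both ages. Their differences were selected on these same values, so they are not independent evidence about the lists. Of 8 further proteases and AAA ATPases of the inner membrane and intermembrane space, none passed at either age, and 7 were above 0 at 3 months and 5 at 6 months (medians 0.57 and 0.10). Htra2, a protease of the intermembrane space, had means at 3 months of 10.5 ± 6.1 FPKM (WT) and 17.8 ± 1.3 (KO; SD, n = 3), and at 6 months of 9.7 ± 5.71 and 13.8 ± 0.994. Its 3-month groups lay apart by a narrow margin, with WT at 11.4, 3.97 and 16.1 FPKM and KO at 16.6, 17.7 and 19.2. At that age 5.02% of all genes had KO entirely above WT. The averaged Htra2 difference was 0.77 (SE 0.36, limma adjusted p = 0.783). In 6-month WT library 3, rich in other-cell markers, Htra2 stood at 3.22 FPKM, against 14.0 and 11.9 in WT libraries 1 and 2. The 6-month KO libraries stood at 12.7 to 14.7 FPKM. Immp2l, a subunit of the inner membrane peptidase, was highest in KO library 3 of both ages, at 29.9 and 29.1 FPKM.

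Of 16 substrates and partners of the members, none passed at either age, with 9 above 0 at 3 months and 8 at 6 months (medians 0.058 and 0.0078). Stard7, a Parl substrate that carries phosphatidylcholine, stood at 9.29, 9.72 and 15.0 FPKM in 3-month WT and at 15.1, 28.02 and 17.8 in 3-month KO. Those groups lay apart by a narrow margin, with a difference of 0.77 (SE 0.29, unadjusted p = 0.0226, adjusted p = 0.691). At 6 months Stard7 was 17.2 ± 2.37 FPKM in WT against 18.2 ± 0.697 in KO. Pink1, the kinase that Parl cleaves, stood at 13.5, 11.8 and 8.04 FPKM in 3-month WT and at 11.3, 41.3 and 19.7 in 3-month KO, and the difference of 0.90 (SE 0.53, adjusted p = 0.776) rested largely on KO library 2. Prelid1, a lipid carrier that Yme1l1 degrades, had 3-month means of 542 ± 82.6 FPKM (WT) and 372 ± 96.4 (KO), a difference of -0.57 (SE 0.31, adjusted p = 0.768). Every KO library of that age was below every WT library, by a narrow margin (highest KO 446, lowest WT 447 FPKM).

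Prohibitins belong to the SPFH family of membrane scaffolds, of which 7 of 9 other genes were tested and none passed. Of these, 4 were above 0 at 3 months and 5 at 6 months (medians 0.20 and 0.090). The flotillin Flot1 stood at 10.99, 11.4 and 6.26 FPKM in 6-month WT and at 11.4, 11.7 and 31.6 in 6-month KO, where KO library 3 alone was far above WT. Of 6 genes of cardiolipin synthesis and remodelling, the lipid with which prohibitins are linked, none passed, with 3 above 0 at 3 months and 4 at 6 months. Taz, the cardiolipin remodelling enzyme, ran from 1.22 to 33.0 FPKM within 3-month WT, so its difference of 1.28 (SE 0.76, adjusted p = 0.777) was within that spread.

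Parl is the mitochondrial member of the rhomboid family, and 5 of 8 other rhomboid genes were tested. None passed, with 4 above 0 at each age (medians 0.70 and 0.21). Rhbdd3 stood at 5.79, 5.22 and 4.11 FPKM in 3-month WT and at 8.10, 6.82 and 9.92 in 3-month KO. Rhbdd3 at 6 months was 3.62, 4.95 and 0.717 FPKM in WT against 9.78, 6.65 and 7.81 in KO. Its groups lay apart at both ages, as those of Afg3l2 did, and its averaged difference was 0.97 (SE 0.30, unadjusted p = 0.00711, adjusted p = 0.783). The lowest WT value of Rhbdd3, 0.717 FPKM at 6 months, was in library 3, rich in other-cell markers.

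**Figure D5:**
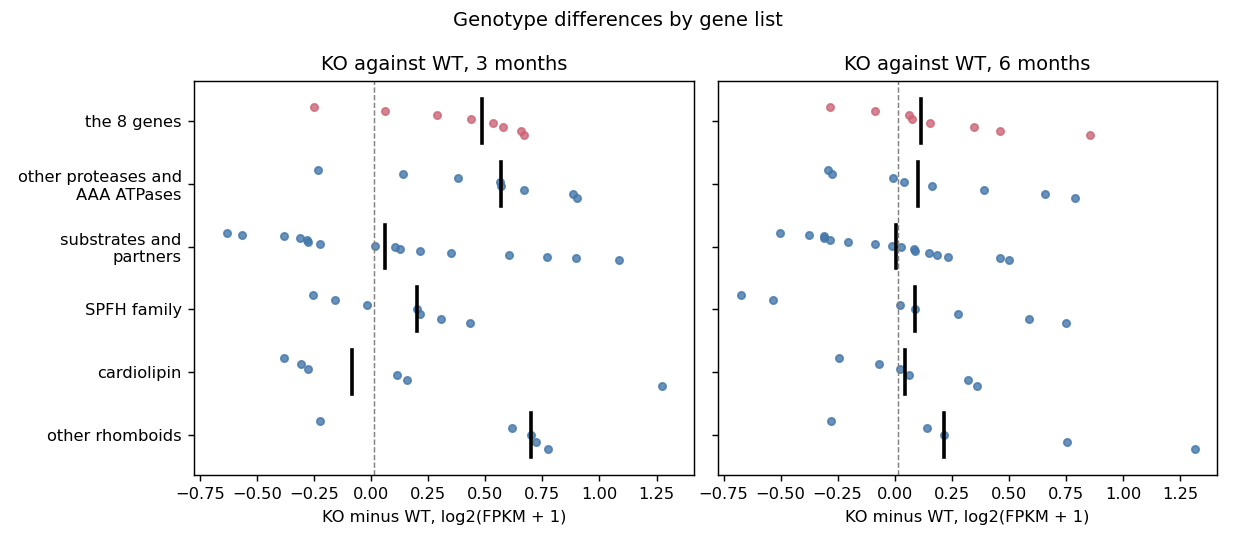
Difference KO minus WT (horizontal axes, log2(FPKM + 1) scale) of each gene tested in the 6 lists at 3 and 6 months, with a point per gene, a black line at the list's median and a dashed line at the median of all genes tested. Medians of the 8 proteases and prohibitins are 0.49 at 3 months and 0.12 at 6 months, beside 0.012 and 0.014 for all genes tested, and no gene of the 6 lists passed an adjusted p of 0.05.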

How the data were processed

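The authors deposited 1 table of FPKM values per gene for 12 libraries. Per the submitters' processing notes, which give neither order nor settings, Cufflinks 1.2.1, TopHat2 2.0.10, Bowtie2 2.1.0, SAMtools 0.1.18, FastQC and cutadapt were used with GRCm38. The gene annotation and read totals are not given in the sources used here, so depth is unknown beyond the spacing of low values, which put relative depth at 0.641 to 1 of the deepest library. No interval for counting error could be given.

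Here the FPKM were taken as log2(FPKM + 1), and differences on this scale understate changes of low genes. Genes with at least 1 FPKM in at least 3 libraries were fitted in limma 3.58.1 (R 4.3.3; eBayes with trend, 4 group means, 8 residual and 3.9 prior degrees of freedom). P-values are 2-sided, adjusted by Benjamini and Hochberg over 11196 genes, threshold 0.05. The fit was tested on simulated data. P-values measure the spread between libraries, each from 1 mouse per the series description. Ratios and single genes were tested by exact permutation of genotype within ages (400 arrangements, smallest p 0.005; 3 against 3 libraries cannot go below 0.1). Correlations used 100000 permutations. The combined other-cell score is the mean of the theca, blood and endothelial marker scores.

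The 8 genes, the lists and the tests were chosen with earlier results of these data known. All 8 genes were named. The genes most like each member in profile were found by Pearson r, and a result for 1 gene that this rule names is not reported here. For each pathway list, the 3 genes with the smallest unadjusted limma p for KO against WT averaged over both ages were taken. The text gives some of these. Partner ratios used 0.1 FPKM added to each gene. Alternatives were pseudocounts of 0.1 and 0.5, no filter or a filter at 5 FPKM, scaling without small RNA or by median of ratios, only the libraries compared, leaving out each library, leaving out the 3 libraries highest in other-cell markers and a replicate block. Same-numbered libraries deviated from their group means together (correlations 0.158, 0.373 and 0.465) at 6 months between KO and WT, and in KO between the ages (0.114, 0.394 and 0.653). There the numbers count as pairs by the rule that each same-numbered correlation exceed 0.1, which is uncertain. Library 1 of 6-month KO correlated more with library 2 of 6-month WT (0.475) and of 3-month KO (0.514) than with library 1 (0.158 and 0.114), and library 3 of these groups shared high other-cell markers, whose part was not tested. For KO against WT at 3 months the correlations were 0.0946, -0.0185 and 0.205. Gene models are GENCODE M21 on GRCm38, and promoters are from RefSeq, GRCm38.p6. Figures were drawn with matplotlib 3.10.9.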

Additional observations from a re-analysis of the deposited data

How the results depend on the processing

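Over all alternatives the 8 genes gave 848 values besides those reported. None passed an adjusted p of 0.05 (smallest 0.257, Afg3l2 at 3 months without the 3 libraries highest in other-cell markers), 804 kept their direction and 44 reversed. With the replicate block 0 of the 8 passed in any comparison (averaged adjusted p = 0.544 for Afg3l2 and 0.469 for Parl), and Spg7 to Afg3l2 gave an exact permutation p = 0.0625 (adjusted 0.25). Afg3l2 ran from 0.540 to 0.862 at 3 months, 0.309 to 0.543 at 6 months and 0.501 to 0.662 averaged, and Parl from 0.315 to 0.748, 0.639 to 1.00 and 0.586 to 0.802. The cause of the reversals was not tested. Scaled without small RNA, which moved the median of all genes to 0.123 at 3 months, the interaction was -0.173 (Phb) and -0.113 (Phb2), and age in WT gave 0.0450 (Afg3l2) and 0.00432 (Yme1l1). Scaling by median of ratios gave -0.0250 for the Phb interaction. Without the 3 libraries, KO against WT at 6 months was 0.0915 (Spg7) and -0.130 (Afg3l1), the interaction -0.164 (Phb), -0.378 (Phb2) and 0.0335 (Yme1l1), and age 0.0825 (Afg3l2, WT) and -0.0517 (Parl, KO).

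Leaving out 1 library at a time, KO against WT ran from -0.167 to 0.259 (Phb, 3 months), -0.0521 to 0.161 (Phb, averaged), -0.209 to 0.114 (Spg7, 6 months), -0.136 to 0.303 (Afg3l1, 6 months) and -0.474 to 0.00197 (Yme1l1, 6 months, highest without WT library 3). The interaction ran from -0.196 to 0.230 (Phb), -0.247 to 0.323 (Phb2) and -0.221 to 0.255 (Yme1l1). Age in WT ran from -0.128 to 0.0825 (Afg3l2), -0.376 to 0.0997 (Yme1l1), -0.0228 to 0.370 (Oma1) and -0.399 to 0.0342 (Parl), and age in KO from -0.414 to 0.0624 (Afg3l1), -0.283 to 0.161 (Yme1l1) and -0.0747 to 0.286 (Parl). The log2 ratio of Spg7 to Afg3l2 ran from -0.515 to -0.301 and that of Afg3l1 to Afg3l2 from -0.364 to 0.137. Calls over all genes, reported as 1, 3 and 2 for KO against WT at 3 months, 6 months and averaged, as 1 for the interaction, and as 1 and 2 for age in WT and KO, ran from 0 to 10, 2 to 3, 1 to 6, 0 to 4, 1 to 10 and 2 to 4 over all alternatives, with both counts of 10 without 3-month WT library 3. With 3 libraries per group and no read totals, differences inside the intervals given were not detectable.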
